A study of Bos taurus
Mus musculus and Bos taurus and Mus musculus with 5 samples.

Results

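The BCL2 family sets whether the outer mitochondrial membrane of a cell opens and death by apoptosis begins. The genes described here were chosen by name: the pore-forming effectors BAX and BAK1, the prosurvival members BCL2, BCL2L1 (BCL-xL) and MCL1, and the BH3-only members BID, BCL2L11 (BIM), BBC3 (PUMA), PMAIP1 (NOXA) and BAD. Of these 10 names, 8 were found among the 13923 gene names of the bovine table, as 8 transcripts, and 10 among the 24543 of the mouse table, as 19 transcripts. BBC3 and PMAIP1 were analysed in the mouse nucleus alone.

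Heterokaryons are cells that hold the nuclei of both fused partners side by side. Bovine fetal fibroblasts (bFF) were fused with C57BL mouse embryonic stem cells (mESC), and 200 cells were sorted for each of 5 libraries: heterokaryons at 24, 48 and 72 h after fusion, unfused bFF and unfused mESC. The fibroblasts came from 1 male fetus of about gestation day 60 and grew at 38.5 °C in fibroblast medium. The mESC grew at 37 °C over a feeder layer of irradiated mouse fibroblasts. Their medium held 2 inhibitors, PD0325901 against MEK at 1 µM and CHIR99021 against GSK3 at 3 µM. Both cell types shared a well for 4 h, received polyethylene glycol for 2 min, and were then kept at 37 °C in stem cell medium without those inhibitors. Every heterokaryon library therefore differs from mESC in the loss of both inhibitors, and from bFF in medium, temperature and the presence of mouse cells, and fusion cannot be told apart from these. Each control is 1 library, and each time point is 1 library, so the times themselves have no replicate.

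Effectors, once active, form pores through which cytochrome c leaves mitochondria. Prosurvival members hold the effectors and the BH3-only members in check by binding a short helix, the BH3 helix. BH3-only members carry signals of damage or stress: some activate BAX and BAK directly, and others occupy the prosurvival members. Pluripotent stem cells are known for dying readily after DNA damage.

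The BH3 helix turns on a leucine and an aspartate that most family members keep. The coding stretch around them is shown for members of each role, because the values that follow compare genes built on this shared element. Each run was read from the coding sequence of the matching GENCODE M21 transcript on GRCm38, 5′ to 3′ on the coding strand, and is 42 bases long. Capitals mark the leucine codon and the aspartate codon, which lie 12 bases apart.
Bax, chr7:45465994-45466035, minus strand, exon 3: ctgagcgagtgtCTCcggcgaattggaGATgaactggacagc
Bak1, chr17:27022528-27022569, minus strand, exon 4: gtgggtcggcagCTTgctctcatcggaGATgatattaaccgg
Bcl2, chr1:106712572-106712613, minus strand, exon 1: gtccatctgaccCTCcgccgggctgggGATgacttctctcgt
Bcl2l1, chr2:152829694-152829735, minus strand, exon 2: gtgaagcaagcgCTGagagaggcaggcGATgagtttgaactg
Mcl1, chr3:95659424-95659465, plus strand, exon 1: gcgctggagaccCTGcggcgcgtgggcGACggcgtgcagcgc
Bid, chr6:120897286-120897327, minus strand, exon 4: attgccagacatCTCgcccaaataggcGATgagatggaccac
Bad, chr19:6950780-6950821, plus strand, exon 3: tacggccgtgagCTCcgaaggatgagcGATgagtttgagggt
Bcl2l11, chr2:128147138-128147179, plus strand, exon 3: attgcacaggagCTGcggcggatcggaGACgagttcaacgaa
Bbc3, chr7:16313761-16313802, plus strand, exon 3: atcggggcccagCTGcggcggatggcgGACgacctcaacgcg
The Bcl2l11 exon number is that of its 196-codon form. The Bcl2l11 form of 91 codons held no such stretch. The stretches were found by a motif that requires both residues, so their presence in each run was set by the search. Pmaip1 was left out of the search, so its absence here says nothing about its motif. The coding sequences held 192 codons in Bax, 209 in Bak1, 195 in Bid and 331 in Mcl1.

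Reads per species differed between libraries. The heterokaryon libraries held 982769 to 1541793 bovine reads, against 2634269 in bFF, and 1731084 to 2427089 mouse reads, against 3446461 in mESC. Levels are given as RPM, a gene's reads scaled to 1000000 reads of its species in that library, with 95% Poisson intervals that cover counting error only. Since 200 cells were pooled, fewer expressing cells and less RNA per expressing cell cannot be told apart. All 8 fibroblast markers searched had bovine reads in bFF, at a summed 36837.5 RPM, and all 8 embryonic stem cell markers had mouse reads in mESC, at a summed 3456.3 RPM. In the heterokaryons the same sums were 18330.9 to 20749.4 RPM for bovine fibroblast genes and 2895.3 to 3416.1 RPM for mouse stem cell genes. Tdgf1 gave 6846 of the 11912 stem cell marker reads in mESC, and single markers differed from the sum. Nanog had 613, 599 and 684 reads at 24, 48 and 72 h, against 2591 in mESC, while Esrrb had 214, 158 and 95, against 189. The mouse totals of these libraries were 2427089, 1731084 and 1836299, against 3446461 in mESC. Scaled to them, Nanog lay under mESC at each time. Esrrb lay above mESC at 24 and 48 h and a little under it at 72 h.

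Bovine BAX was the one member whose level differed between heterokaryons and bFF in the test across all genes. It had 92, 88 and 69 reads at 24, 48 and 72 h, or 93.6 RPM (75.5 to 114.8), 66.1 RPM (53.0 to 81.4) and 44.8 RPM (34.8 to 56.6), against 27 reads in bFF, or 10.2 RPM (6.76 to 14.9). All 3 heterokaryon libraries lay above bFF, and the listed level was lower at each later time. The log2 fold change was 2.80 ± 0.49 (SE, 3 libraries against 1; edgeR adjusted p = 0.00481).

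That listing cannot be read as bovine transcript alone. The unfused mESC, which hold no bovine nucleus, had 110 reads listed as bovine BAX beside 1628 listed as mouse Bax. This is 6.76 bovine reads per 100 mouse reads, against 1.36 over all genes with at least 100 mouse reads, and 120 of those 4048 genes (2.96%) had as high a rate. The 110 reads were then scaled by the total mouse reads of each heterokaryon library over those of mESC. This would place 77.5, 55.3 and 58.6 of the bovine BAX reads on the mouse nucleus at 24, 48 and 72 h. Those were 84.2%, 62.8% and 84.9% of the reads listed. The reads that remain came to 14.8, 24.6 and 6.74 RPM at 24, 48 and 72 h, against 10.2 RPM in bFF. They lie on both sides of the bFF level. With those reads subtracted for every gene, the log2 fold change of bovine BAX was 0.71 (adjusted p = 0.628), and with the rate tied to each gene's own mouse reads it was 1.04 (adjusted p = 0.436).

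**Figure D1:**
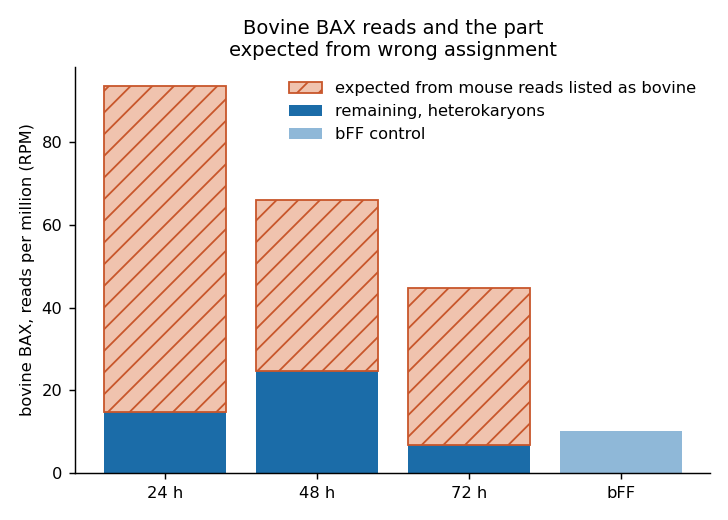
Bovine BAX in RPM of the bovine reads (vertical axis) in the heterokaryon libraries at 24, 48 and 72 h and in bFF, 1 library each. The hatched part of a bar is the amount expected from mouse reads listed as bovine, scaled from mESC, and the dark part is what remains: 14.8, 24.6 and 6.74 RPM, against 10.2 RPM in bFF.

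Mouse Bax was the most abundant member per unit of transcript length in mESC. It had 1013, 750 and 855 reads at 24, 48 and 72 h, or 417.4, 433.3 and 465.6 RPM, against 1628 reads or 472.4 RPM in mESC. The heterokaryon values lay at or a little under the control, with a log2 fold change of -0.15 ± 0.19 (adjusted p = 0.724). The reads listed for mouse Bax in unfused bFF numbered 3, and the other mouse members had 0 there.

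The second effector, BAK1, was a low-count gene in both nuclei. Bovine BAK1 had 11, 14 and 21 reads at 24, 48 and 72 h, or 11.2, 10.5 and 13.6 RPM, against 11 reads or 4.18 RPM in bFF. Each heterokaryon library lay above bFF, but the log2 fold change of 1.60 ± 0.82 did not pass the test (adjusted p = 0.264). No read was listed as bovine BAK1 in mESC. Mouse Bak1 had 5, 6 and 4 reads at 24, 48 and 72 h, or 2.06, 3.47 and 2.18 RPM, against 7 reads or 2.03 RPM in mESC. It stayed under the 10 CPM (RPM with the total rescaled by edgeR's TMM factor) that a gene needed in at least 1 library to be tested.

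Among the prosurvival members, MCL1 had the opposite order in the 2 nuclei. MCL1 is a short-lived protein that binds BAK and BIM, among others. Bovine MCL1 had 105, 111 and 112 reads at 24, 48 and 72 h, or 106.8 RPM (87.4 to 129.3), 83.3 RPM (68.6 to 100.4) and 72.6 RPM (59.8 to 87.4), against 496 reads in bFF, or 188.3 RPM (172.1 to 205.6). Each heterokaryon library lay under bFF, with counting intervals that did not overlap that of bFF. The log2 fold change was -1.01 ± 0.30, with an unadjusted p of 0.00488 and an adjusted p of 0.052 (edgeR), just above the 0.05 limit.

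Mouse Mcl1 had 654, 397 and 420 reads at 24, 48 and 72 h, or 269.5, 229.3 and 228.7 RPM, against 574 reads or 166.5 RPM in mESC. All 3 heterokaryon libraries lay above mESC. The log2 fold change of 0.50 ± 0.22 did not pass the test (adjusted p = 0.276). Estimated wrong assignment touched bovine MCL1 little, at 2.01%, 1.36% and 1.43% of its reads at 24, 48 and 72 h, and at most 3.26% when scaled by gene.

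BCL2L1, which encodes BCL-xL, had few bovine reads. There were 11, 15 and 11 at 24, 48 and 72 h, or 11.2, 11.3 and 7.14 RPM, against 36 in bFF, or 13.7 RPM. The log2 fold change was -0.38 ± 0.66 (adjusted p = 0.777). Mouse Bcl2l1 had 67, 39 and 37 reads at 24, 48 and 72 h, or 27.6, 22.5 and 20.2 RPM, against 125 reads or 36.3 RPM in mESC. Each heterokaryon library was under mESC, with ratios of 0.737, 0.607 and 0.536 at the successive times, and a log2 fold change of -0.67 ± 0.34 that did not pass the test (adjusted p = 0.335).

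BCL2 itself was not detected in the mouse nucleus, with 0 reads in the heterokaryons at all 3 times and 0 in mESC. At 3 reads as the limit that a count of 0 allows, its level could be up to 1.24, 1.73 and 1.63 RPM at 24, 48 and 72 h and 0.871 RPM in mESC. Bovine BCL2 had 0 reads in each heterokaryon library, which allows up to 3.05, 2.25 and 1.95 RPM, against 5 reads or 1.90 RPM in bFF. A difference from bFF was not detectable at this depth.

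**Figure D2:**
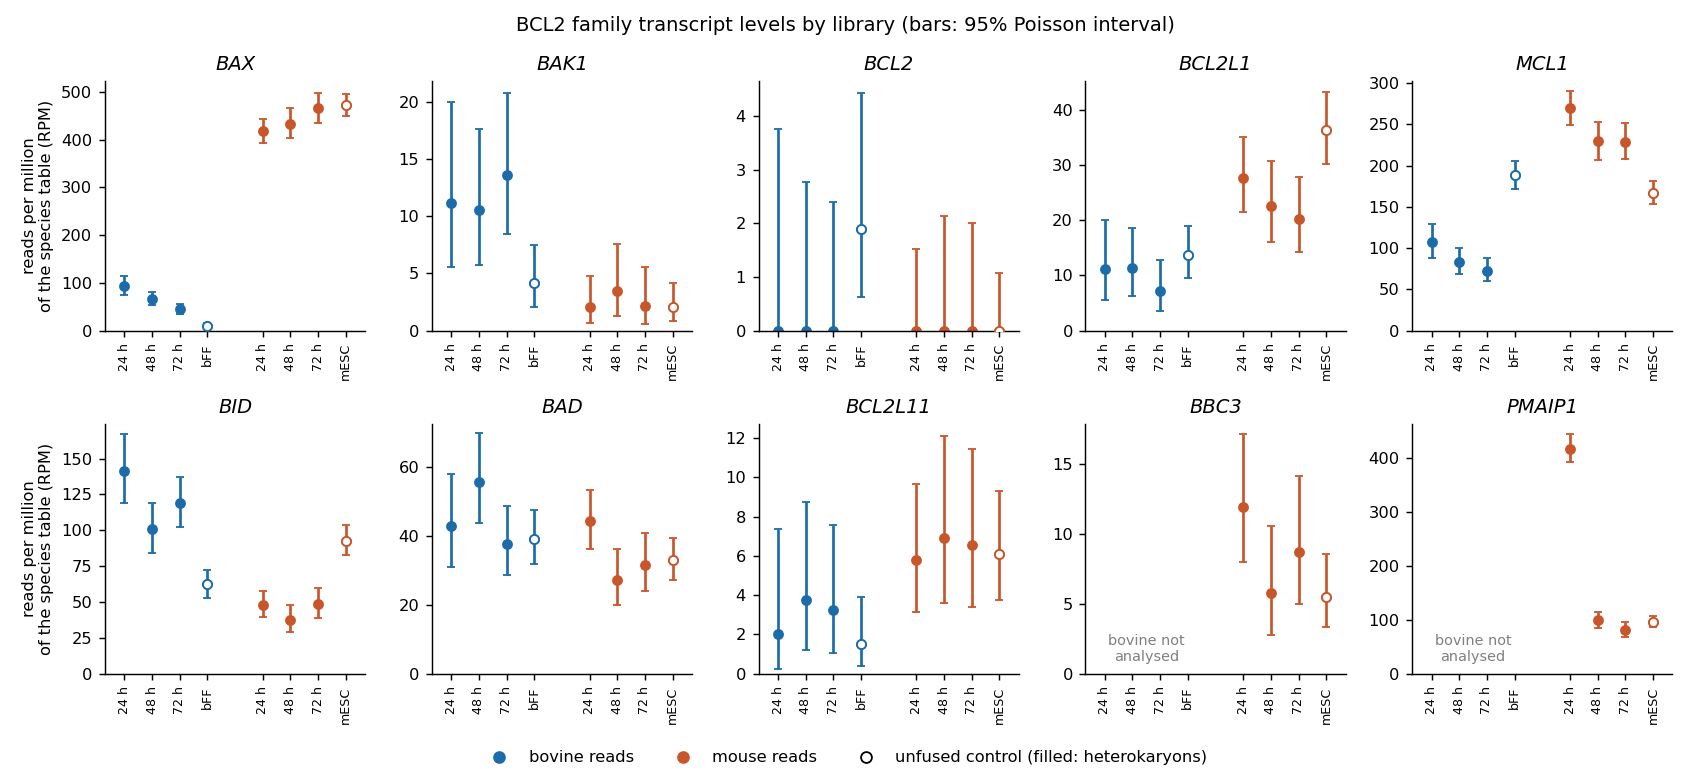
RPM (vertical axis, linear and set per gene) for each member in the heterokaryons at 24, 48 and 72 h and in the unfused control, bovine genes beside bFF and mouse genes beside mESC, 1 library per point with 95% Poisson intervals. Bovine MCL1 lies under bFF and mouse Mcl1 above mESC at every time, and mouse Pmaip1 stands apart at 24 h, at 417.4 RPM.

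BID, a BH3-only protein that caspase-8 cuts to link death receptors to mitochondria, also differed in opposite directions. Bovine BID had 139, 134 and 183 reads at 24, 48 and 72 h, or 141.4 RPM (118.9 to 167.0), 100.6 RPM (84.3 to 119.1) and 118.7 RPM (102.1 to 137.2), against 164 reads in bFF, or 62.3 RPM (53.1 to 72.6). All 3 heterokaryon intervals lay above that of bFF. The log2 fold change was 1.05 ± 0.34, with an unadjusted p of 0.0086 and an adjusted p of 0.0728, above the limit. No read was listed as bovine BID in mESC, beside 320 listed as mouse Bid.

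Mouse Bid had 117, 65 and 89 reads at 24, 48 and 72 h, or 48.2 RPM (39.9 to 57.8), 37.6 RPM (29.0 to 47.9) and 48.5 RPM (38.9 to 59.6), against 320 reads in mESC, or 92.9 RPM (83.0 to 103.6). The heterokaryon libraries all lay under mESC without overlap of their intervals. The log2 fold change was -1.09 ± 0.28, with an unadjusted p of 0.00151 and an adjusted p of 0.0783. With 1 library left out, the adjusted p of bovine BID was 0.00674 without 24 h, 0.159 without 48 h and 0.117 without 72 h. That of mouse Bid was 0.00289 without 24 h, 0.3 without 48 h and 0.0323 without 72 h.

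Mouse Pmaip1 was high at 24 h and near its control afterwards. The gene encodes NOXA, a BH3-only protein that binds MCL1. It had 1013, 171 and 149 reads at 24, 48 and 72 h, or 417.4 RPM (392.1 to 443.9), 98.8 RPM (84.5 to 114.7) and 81.1 RPM (68.6 to 95.3), against 332 reads in mESC, or 96.3 RPM (86.3 to 107.3). The 24 h library was 4.2 times mESC (95% counting interval 3.7 to 4.76), while the ratio was 1.0 (0.829 to 1.21) at 48 h and 0.813 (0.666 to 0.989) at 72 h. At 72 h the level was 0.194 times that at 24 h (0.162 to 0.23). These ratios compare single libraries. Over the 3 times together the log2 fold change was 1.02 ± 0.63 (adjusted p = 0.438), and without the 24 h library it was -0.09.

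Pmaip1 was the 1 mouse member past 4-fold on the log2(CPM + 1) scale at 24 h, at 2.06, where 1.69% of all genes at 10 CPM or more were that much higher than in mESC. Lower by as much were 0 members, beside 0.378% of genes. At 48 and 72 h no mouse member was past 4-fold from mESC in either direction, beside 0.577% of genes higher and 0.372% lower at 48 h and 0.426% higher and 0.0851% lower at 72 h. Pmaip1 was also the 1 mouse member 4-fold lower at 72 h than at 24 h, at -2.35, where 0.989% of all genes were lower and 0.203% higher. In the bovine nucleus BAX was the 1 member past 4-fold higher than bFF at each time, where 4.03%, 2.97% and 3.36% of genes were at 24, 48 and 72 h, and the wrong-assignment values above apply to it. No bovine member was 4-fold lower than bFF, beside 2.89%, 3.53% and 4.16% of genes at 24, 48 and 72 h. Between 72 and 24 h no bovine member was past 4-fold, beside 0.955% of genes higher and 2% lower. Of the mouse fibroblast markers Vim moved in the same library, with 354, 98 and 76 reads at 24, 48 and 72 h, against 63 in mESC. Vim gave most of the summed level of the 8 markers, which was 166.9, 79.1 and 59.4 RPM at 24, 48 and 72 h, against 20.6 RPM in mESC. Col1a2, Col3a1, Lum and Pdgfrb were at 0 at 24 h, Dcn had 2 reads in every library, and Thy1 had 9 reads at 24 h against 0 in mESC. Col1a1 had 40, 31 and 29 reads at 24, 48 and 72 h, against 6 in mESC, and had 92 reads listed as mouse in unfused bFF. The part of Vim in the Pmaip1 value was not tested.

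Bbc3 encodes PUMA, a BH3-only protein that binds all prosurvival members. It had 29, 10 and 16 reads at 24, 48 and 72 h, or 11.95, 5.78 and 8.71 RPM, against 19 reads or 5.51 RPM in mESC. The 24 h library stood 2.1 times above mESC (1.14 to 3.96), and the log2 fold change over all times was 0.64 ± 0.79 (adjusted p = 0.714). Only the 24 h library took Bbc3 past the 10 CPM filter, so without that library it was not tested.

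BAD, which binds BCL2 and BCL-xL when growth factor signals fail, was near its control in both nuclei. Bovine BAD had 42, 74 and 58 reads at 24, 48 and 72 h, or 42.7, 55.6 and 37.6 RPM, against 103 reads or 39.1 RPM in bFF, with a log2 fold change of 0.32 ± 0.39 (adjusted p = 0.671). Mouse Bad had 107, 47 and 58 reads at 24, 48 and 72 h, or 44.1, 27.2 and 31.6 RPM, against 113 reads or 32.8 RPM in mESC. Its log2 fold change was 0.03 ± 0.35 (adjusted p = 0.972).

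BCL2L11 encodes BIM, which binds every prosurvival member and also activates BAX. It was too low to be tested in either nucleus. Bovine BCL2L11 had 2, 5 and 5 reads at 24, 48 and 72 h, against 4 in bFF. In mESC 2 reads were listed as bovine BCL2L11. Scaled by species total, 70.4%, 20.1% and 21.3% of its reads at 24, 48 and 72 h were expected from mouse transcripts. Mouse Bcl2l11, summed over 5 transcripts, had 14, 12 and 12 reads at 24, 48 and 72 h, against 21 in mESC. In RPM these were 5.8, 6.9 and 6.5, against 6.1 in mESC.

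In all, 6 of the 8 bovine members passed the level filter, and 1 was called, beside 9.14% of the 7376 bovine genes tested. Their median log2 fold change was 0.68, against -0.03 over all genes. The call and the median use bovine BAX as listed. With wrongly listed reads subtracted by species total, 0 bovine members were called, beside 268 higher and 320 lower of 7382 genes. Of the 10 mouse members 7 passed the filter and 0 were called by edgeR or by DESeq2, beside 0.982% of the 8857 mouse genes tested. At an unadjusted edgeR p under 0.05 there were 2 mouse members, Bid and Mcl1, beside 1455 of the 8857 mouse genes. By the same limit there were 3 bovine members, BAX, BID and MCL1, beside 1776 of the 7376 bovine genes. The mouse members' median was 0.03, against -0.09 over all genes.

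The next question was whether a gene changed alike in the 2 nuclei that shared a cytoplasm. For each of 5 members tested in both, the bovine change (heterokaryons over bFF) was set against the mouse change (heterokaryons over mESC) in 1 model. The change of BAX was higher in the bovine nucleus by 2.95 ± 0.47 on the log2 scale (adjusted p = 0.00367), and that of BID by 2.14 ± 0.41 (adjusted p = 0.00955). The change of MCL1 was lower in the bovine nucleus by 1.51, at -1.51 ± 0.36 (adjusted p = 0.0255). BAD differed by 0.29 ± 0.54 (adjusted p = 0.798) and BCL2L1 by 0.28 ± 0.64 (adjusted p = 0.84), sizes within their errors. Of these 5 members 2 were called higher and 1 lower in the bovine nucleus, beside 3.69% and 1.54% of the 5635 genes tested, or 5.24% in all, and the members' median was 0.29, against 0.11 over all genes.

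For BAX the difference rests on reads that may be of mouse origin. With those subtracted it was 0.83 (adjusted p = 0.48), or 1.17 (adjusted p = 0.318) when scaled by gene. The BID and MCL1 calls depend on which library is left out. Without the 48 h library the adjusted p was 0.0616 for BID and 0.151 for MCL1, and without the 72 h library it was 0.0439 for BID and 0.0864 for MCL1. Without the 24 h library it was 2.2e-05 for BID and 7.6e-05 for MCL1. The sizes hardly moved, at 2.13 for BID and -1.53 for MCL1 without 48 h. Because each change is set against its own control, a difference in how the bFF and mESC were grown enters these values and cannot be told apart from fusion.

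**Figure D3:**
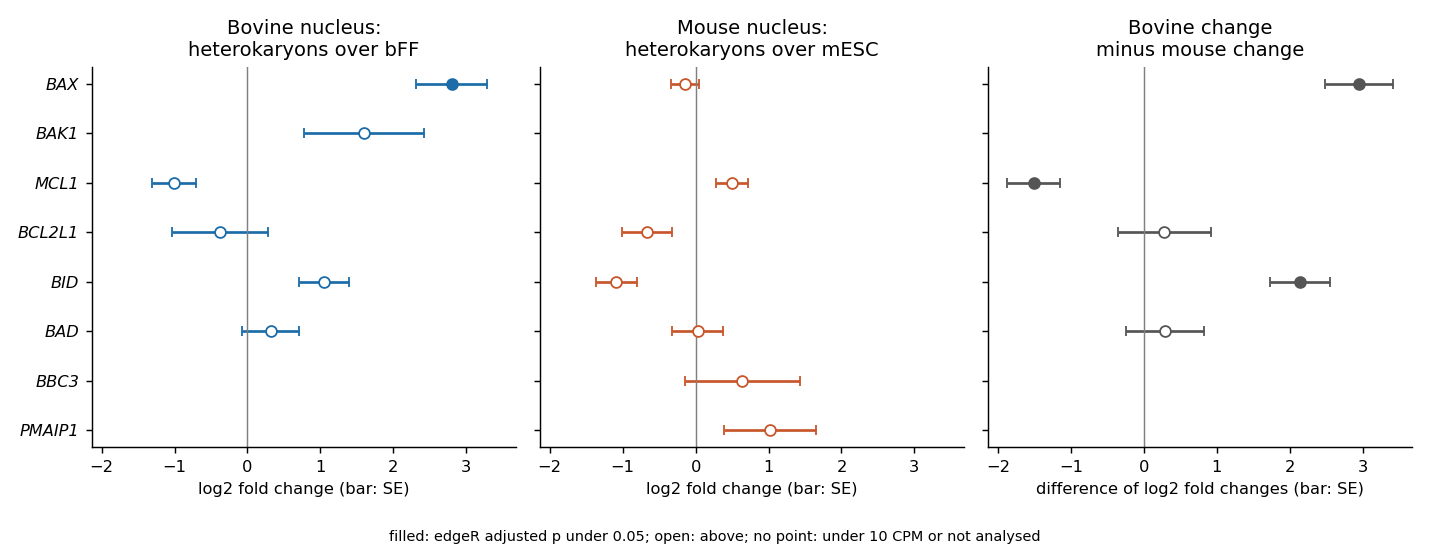
Log2 fold change of each tested member (points, with standard errors as bars) for heterokaryons over bFF in the bovine nucleus and heterokaryons over mESC in the mouse nucleus, 3 libraries against 1 in each, and in the panel on the right for the bovine change minus the mouse change. Filled points passed the test. BID lies at 1.05 in the bovine and -1.09 in the mouse nucleus, and MCL1 at -1.01 and 0.50.

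The bovine share of each gene's reads within a heterokaryon library is a level set between the species with no control, not a change, and orthologs differ in length. Over all genes 28.8%, 43.5% and 45.6% of reads were bovine at 24, 48 and 72 h. BID lay above these shares at each time, at 54.3%, 67.3% and 67.3%, with exact 95% intervals of 48.0 to 60.5, 60.3 to 73.8 and 61.4 to 72.8. MCL1 lay under them, at 13.8%, 21.9% and 21.1%, with intervals of 11.5 to 16.5, 18.3 to 25.7 and 17.7 to 24.8.

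The bovine share of BAX was 8.33%, 10.5% and 7.47% at 24, 48 and 72 h, so most BAX reads in the fused cells were listed as mouse even with the doubtful reads counted as bovine. BCL2L1 was mostly mouse too, at 14.1%, 27.8% and 22.9%. BAK1 was mostly bovine, at 68.8%, 70.0% and 84.0%, but of 16 to 25 reads. BAD stood at 28.2%, 61.2% and 50.0%.

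**Figure D4:**
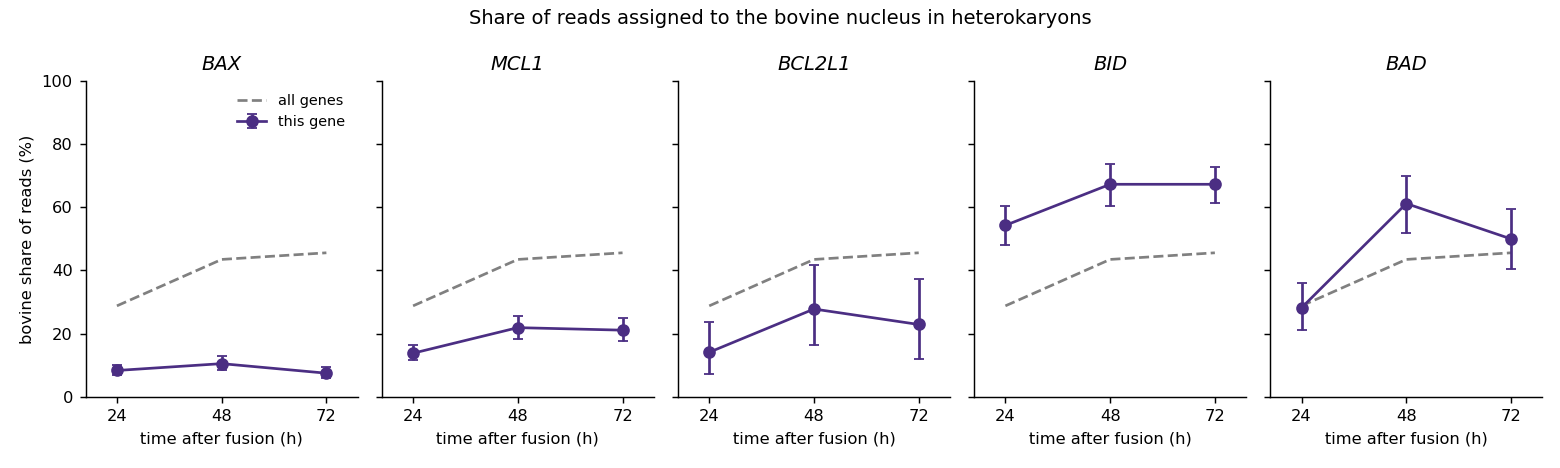
Percent of a gene's reads listed as bovine (vertical axis) in the heterokaryon libraries at 24, 48 and 72 h, with exact binomial 95% intervals, for 5 members tested in both nuclei, beside the share over all genes. BID lies above the all-gene share of 28.8%, 43.5% and 45.6% at every time, and BAX, MCL1 and BCL2L1 lie under it.

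Levels of different genes can be compared once divided by transcript length, which was possible for the mouse members, since 18 of their 19 transcripts matched a GENCODE length. In RPKM, which is RPM per kilobase of transcript, Bax led at 24, 48 and 72 h, at 481.4, 499.7 and 537.0, against 544.8 in mESC. Mcl1 followed in mESC at 48.7 (95% counting interval 44.8 to 52.9), then Bid at 42.4 (37.9 to 47.3) and Pmaip1 at 35.3 (31.6 to 39.3). By exact counting intervals of the ratio, Mcl1 was 1.15 times Bid (1.0 to 1.32) and Bid was 1.2 times Pmaip1 (1.03 to 1.4), in the 1 mESC library.

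In the heterokaryons the order under Bax differed from that in mESC. At 24 h Pmaip1 stood second at 153.1 RPKM, ahead of Mcl1 at 78.8 and Bad at 39.0. At 48 and 72 h Mcl1 stood second at 67.1 and 66.9 RPKM, with Pmaip1 next at 36.2 and 29.8. Bid had 22.0, 17.2 and 22.1 RPKM at 24, 48 and 72 h, against 42.4 in mESC. Bcl2l1 had 9.83, 8.29 and 7.4 RPKM, against 13.1 in mESC, from the 3 of its 4 transcripts with a length. Bbc3, Bcl2l11 and Bak1 were each under 7 RPKM in every library.

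The reads of mouse members with several transcripts were spread over them. In mESC the 4 Bcl2l1 transcripts had 11 to 40 reads each and both Bad transcripts had 53 and 60. How reads shared between transcripts were divided is not given in the sources used here, so transcript counts were summed by gene.

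Around the family, 80 genes of the same pathway were examined in 7 lists by role. Of 57 tested in the bovine nucleus 5 were higher and 1 was lower in heterokaryons, beside 4.37% higher and 4.77% lower among all bovine genes. Of 58 tested in the mouse nucleus 1 was higher and 1 was lower (0.576% and 0.406% of all genes). The lists' medians were 0.01 in the bovine and -0.08 in the mouse nucleus.

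BNIP3, a distant relative that marks mitochondria for removal and is induced by low oxygen, rose in both nuclei. Bovine BNIP3 had 945, 1546 and 2315 reads at 24, 48 and 72 h, against 125 in bFF, a log2 fold change of 4.79 ± 0.48 (adjusted p = 0.000123). Mouse Bnip3 had 2335, 1957 and 2305 reads, against 1393 in mESC, a log2 fold change of 1.42 ± 0.21 (adjusted p = 0.00361). The bovine change was higher by 3.37 ± 0.44 (adjusted p = 0.00119).

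Of 14 tested genes of the mitochondrial gate and the factors it releases, 2 rose in the bovine nucleus. The channel gene VDAC2, whose protein holds BAK at the outer membrane, had 1440, 1938 and 2312 reads at 24, 48 and 72 h, against 1181 in bFF, a log2 fold change of 1.82 ± 0.34 (adjusted p = 0.00595). CYCS, cytochrome c, had 473, 746 and 827 reads, against 486 in bFF, a log2 fold change of 1.62 ± 0.34 (adjusted p = 0.0109). In the mouse nucleus Mfn1, a mitochondrial fusion factor, had 82, 80 and 57 reads, against 328 in mESC, and fell by 1.41 on the log2 scale (SE 0.30, adjusted p = 0.0377; 0.0673 by DESeq2).

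Of 3 tested caspase inhibitors BIRC5 (survivin), which also serves chromosome segregation in dividing cells, rose in the bovine nucleus. It had 101, 389 and 540 reads at 24, 48 and 72 h, against 58 in bFF, a log2 fold change of 3.63 ± 0.67 (adjusted p = 0.00599). Of its reads 11.9%, 2.2% and 1.68% were expected from mouse transcripts at 24, 48 and 72 h. YWHAQ, a 14-3-3 protein of the group that holds phosphorylated BAD, had 1006, 1936 and 2588 bovine reads, against 1074 in bFF, a log2 fold change of 1.89 ± 0.41 (adjusted p = 0.0129). DDIT3 (CHOP), a stress factor, had 176, 200 and 217 bovine reads, against 1018 in bFF, and fell by 1.20 on the log2 scale (SE 0.27, adjusted p = 0.0159; 0.0789 without the 48 h library). None of the 8 apoptosome and caspase genes or the 7 death receptor genes tested in the bovine nucleus was called by edgeR. In each list 1 gene had an unadjusted p under 0.05, beside 1776 of the 7376 bovine genes tested.

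**Figure D5:**
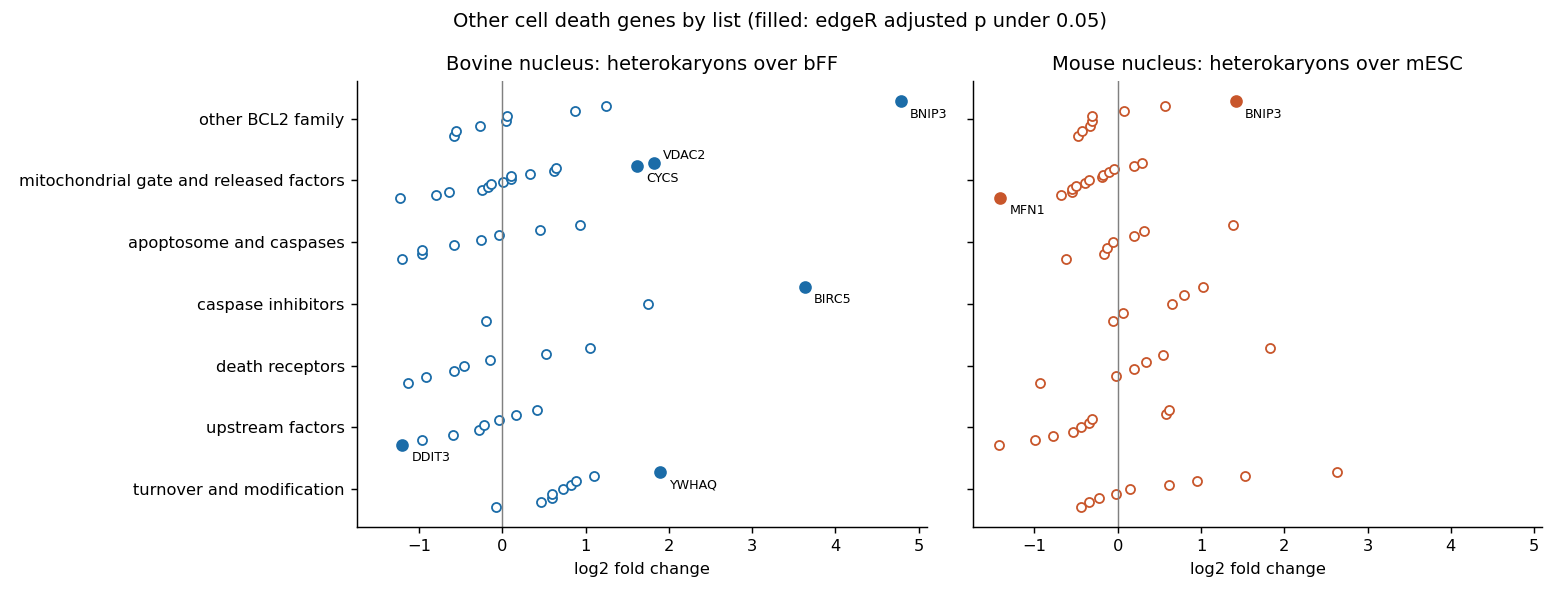
Log2 fold change (horizontal axis) of each tested gene of the 7 cell death lists, 1 point per gene, for heterokaryons over bFF (left) and heterokaryons over mESC (right). Filled points passed the test: BNIP3 at 4.79 is farthest right in the bovine nucleus, and BNIP3 and MFN1 are the filled points in the mouse nucleus. Genes with 0 reads in the control are not drawn.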

How the data were processed

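RNA of 200 sorted cells per library was made into cDNA with the SMART-Seq v4 kit (14 cycles), per the labels' protocols. The authors deposited read counts per RefSeq transcript, 1 table per species, with the same counts as RPM. The builds bosTau8, GRCm38 and mm10 come from the submitters' processing notes. The aligner, the rule that assigned a read to a species, and the use of strand were given by no source used here. Deposited RPM equalled reads divided by column totals. A totals row in the mouse table was left out, 23 bovine and 57 of 60 mouse names that had become dates were restored, and transcript counts were summed by name.

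Counts were tested with edgeR 4.0.16 (R 4.3.3) by quasi-likelihood: TMM factors, genes with at least 10 CPM in at least 1 library, Benjamini-Hochberg adjustment over all genes, threshold 0.05. The 3 heterokaryon libraries stood against 1 control, which is assumed to vary like them, so p-values measure the spread between libraries of different times. The difference between nuclei was an interaction term over genes named alike in both tables. Single libraries were compared by size, on log2(CPM + 1) at 4-fold, with exact conditional intervals of the TMM-scaled ratio. Reads listed for the other species were estimated from the unfused control of that species. Read intervals cover counting error only, and amplified reads are not independent molecules.

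The alternatives were DESeq2 1.42.0 and its size factors, library totals, filters of 1 and 50 CPM or none, leaving out each library, subtracting wrongly listed reads, the transcript with most reads, and the library as a block, since a heterokaryon library gives both species' counts from the same cells. Mouse lengths and coding sequences came from GENCODE M21, matched by RefSeq identifier. All members were described, and the other pathway genes named were those that passed the test. The members and lists were chosen with earlier results of these data known. The tests were also run on simulated counts with the same dispersion for every gene and no culture difference. That check therefore does not bear on either point in these data.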

Additional observations from a re-analysis of the deposited data

Results flagged for a closer look

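For 3 of the 5 members tested in both nuclei the change from the unfused control differed between the nuclei by a test of the difference. Beside them 5.24% of the 5635 genes tested were called. Fusion cannot be told apart from culture in these changes, and the BID and MCL1 calls depend on the library left out, as given above. For BAX the bovine change exceeded the mouse change by 2.95 on the log2 scale. Once reads expected from mouse transcripts were subtracted it was 0.83 and no longer called. For BID the bovine change exceeded the mouse change by 2.14, and no read was listed as bovine BID in mESC. For MCL1 the bovine change minus the mouse change was -1.51, with at most 3.26% of its bovine reads expected from mouse transcripts in any heterokaryon library under either scaling.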

How the results depend on the processing

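The number of bovine members called was 1 (BAX) as reported, 2 with library totals alone or a 50 CPM filter (MCL1 added), 0 after subtraction of wrongly listed reads by either scaling, and 1 to 3 when 1 library was left out (BID and MCL1 added without 24 h). In the mouse nucleus it was 0, and 0 to 1 with 1 library left out (Bid, without 24 h or 72 h). The number whose change differed between nuclei was 3, and 1 to 3 with 1 library left out. After subtraction of wrongly listed reads by either scaling that number was 2 (BID and MCL1, with BAX lost). By species total, 162 of all 5643 genes tested were then called higher and 68 lower in the bovine nucleus. By gene, 174 and 73 of 5649 were. With the library as a replicate block, which pairs the species' counts of each library, the number of members was again 3. The estimated mouse share of bovine BAX reads at 24 h was 74.4% when scaled by gene. With 1 library left out, 3 single values changed sign, none of them past the threshold: mouse Bad ranged over -0.15 (without 24 h) to 0.16, mouse Pmaip1 over -0.09 (without 24 h) to 1.39, and the BAD difference over -0.04 (without 48 h) to 0.54. With a pseudocount of 5, bovine BAX at 72 h was no longer past 4-fold. At a 2-fold limit BAK1, BID or MCL1 joined it at each time. For the called genes of the other cell death lists the same settings were tried after seeing the data: DDIT3 lost its call without 48 h, and Mfn1 with the 50 CPM filter (adjusted p = 0.07), with subtraction by species total (0.0523) and in DESeq2. Over all genes, calls without the 24 h library numbered 830 higher and 919 lower in the bovine nucleus (322 and 352 as reported), 222 and 258 in the mouse nucleus (51 and 36) and 563 and 393 for the difference (208 and 87). Without 48 h they numbered 229 and 223 in the bovine nucleus, 50 and 16 in the mouse nucleus and 48 and 18 for the difference. Without 72 h they numbered 181 and 233 in the mouse nucleus and 97 and 39 for the difference. DESeq2 called 347 and 184 bovine and 90 and 29 mouse genes, the 50 CPM filter 220 and 211 bovine and 27 and 22 mouse genes, and no filter 97 and 70 mouse genes. The cause was not tested. Depth limits BCL2, BCL2L11, BAK1 and bovine BCL2L1, each with at most 36 bovine reads in any library.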

Other observations

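Outside the family, mouse genes of the cell death lists were compared with mESC at 4-fold on the log2(CPM + 1) scale. At 24 h 4 of 56 were higher, beside 1.69% of all genes. At 48 h 1 of 56 was, beside 0.577%, and at 72 h 0 of 54 were, beside 0.426%. Lower by as much were 0 at each time. The 4 genes were under 10 CPM in mESC and passed the filter through the 24 h library where they were high, so their number supports nothing. They are named here after their values were seen, and none passed the test over all times. Fas, a death receptor, had 33, 5 and 0 reads at 24, 48 and 72 h, against 0 in mESC, at least 15.1-fold higher at 24 h against 3 reads. Apaf1, the scaffold of the apoptosome, had 95, 23 and 27 reads, against 29 in mESC, a ratio of 4.51 at 24 h (95% counting interval 2.95 to 7.08). Tnfrsf12a, the receptor of the cytokine TWEAK, had 123, 22 and 40 reads, against 27 in mESC, a ratio of 6.27 at 24 h (4.1 to 9.89). Fbxw7, a ubiquitin ligase subunit that targets MCL1, had 89, 35 and 28 reads, against 28 in mESC, a ratio of 4.37 at 24 h (2.83 to 6.95). The reads given are not scaled to depth. The 48 and 72 h libraries held 1731084 and 1836299 mouse reads, against 3446461 in mESC. The same number of reads therefore stands for a higher level there than in mESC. The gene past 4-fold at 48 h was Mapk8, a stress kinase, with 15, 20 and 10 reads at 24, 48 and 72 h, against 4 in mESC, a ratio of 9.73 at 48 h (3.26 to 39.2). Vim was highest in the 24 h library, as given above, and its part in these values was not tested.

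In the bovine nucleus 4 of 56 genes of these lists were at least 4-fold higher than bFF at 24 h, beside 4.03% of all genes. They were BNIP3, BIRC3, BIRC5 and FBXW7, and 0 were lower, beside 2.89%. Bovine FBXW7 had 41, 14 and 7 reads at 24, 48 and 72 h, against 23 in bFF, a ratio of 4.77 at 24 h (2.8 to 8.33). Bovine APAF1 had 16, 3 and 2 reads at 24, 48 and 72 h, against 39 in bFF. Its 72 h level was at least 4-fold under both the 24 h library and bFF, beside 2% of bovine genes for the first comparison and 4.16% for the second.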
